A study of Mus musculus with 5 samples.

Results

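The calcium-activated chloride channel regulators Clca1, Clca2, Clca3a1, Clca3a2 and Clca3b were followed in uteri that had been exposed to the seminal plasma (SP) of aged or young males. The members are the 5 genes of the Clca family in the count table, found by their symbols among 28666 listed genes. The family was chosen on the levels seen in these same libraries, so its differences between libraries and groups are given as descriptions, without a test. All uteri came from ICR females of 6 to 8 weeks. They were mated with C57BL/6 males after vasectomy, which leaves seminal plasma and removes sperm, so that no embryos were present. The males were 12 to 18 months old in the aged-SP group (replicates 1 and 4) and 12 to 14 weeks old in the young-SP group (replicates 1, 2 and 4). The methods place the collection at 3.0 days post coitum (dpc), whereas the labels say 3.5 days after caging. Total counts of the libraries lay between 15071914 and 16728601. The labels do not state that the libraries of a group came from separate females or males, so p-values measure only the spread between these libraries, which may be technical in part.

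CLCA proteins were named as chloride channels, but they are now known as secreted or membrane-anchored proteins with a metalloprotease-like domain that cuts the protein itself. CLCA1 is a major protein of goblet cell mucus and raises the current of the calcium-activated chloride channel anoctamin 1 (Ano1) at the cell surface. In the mouse uterus, the luminal and glandular epithelium secretes under estrogen and turns to a receptive, absorptive state under progesterone before implantation. Clca2 is known from basal cells of stratified epithelia, and Clca3a1 has been described in lymphatic endothelium.

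The family lies as a cluster on chromosome 3 of GRCm38, on the minus strand, over 369.8 kb. Clca3a1 spans 144729677 to 144760977, Clca3a2 144796559 to 144819494 and Clca3b 144822623 to 144849357. Clca1 (145003817 to 145032776) and Clca2 (145070263 to 145099443) follow, and the longest coding transcript of each of the 5 genes has 14 exons. Clca4a, Clca4b and the pseudogene Clca4c-ps, annotated between Clca3b and Clca1, were not analysed here. The coding sequences of Clca3a1 and Clca3a2 are 97.1% identical (2627 of 2706 bases), with 242 identical bases in 1 run. Clca3b is 86.2% identical to Clca3a1 and 86.7% to Clca3a2 over the aligned bases. Clca1 and Clca2 are between 59.9% and 65.3% identical to each other and to the Clca3 genes. A 60-base window of exon 1 is nearly the same in the 3 Clca3 genes but not in Clca1 and Clca2. Reads from such a window can be hard to tell apart among the Clca3 genes. The window is an example of high likeness and not a typical stretch for Clca3b. Over the aligned coding bases, Clca3b is less like Clca3a1 and Clca3a2 than it is here. Capitals mark bases that differ from Clca3a2, and the window starts at coding base 94 of the Clca3 genes, 97 of Clca1 and 121 of Clca2.
Clca3a2: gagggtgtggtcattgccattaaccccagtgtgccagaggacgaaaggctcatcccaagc
Clca3a1: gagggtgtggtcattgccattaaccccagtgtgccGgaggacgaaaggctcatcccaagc
Clca3b: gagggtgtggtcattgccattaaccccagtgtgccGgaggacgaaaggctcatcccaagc
Clca1: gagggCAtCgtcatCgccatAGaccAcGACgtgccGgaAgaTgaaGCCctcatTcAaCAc
Clca2: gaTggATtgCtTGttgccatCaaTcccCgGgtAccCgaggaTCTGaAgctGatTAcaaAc
The windows lie at chr3:144819317-144819376 (Clca3a2), chr3:144760570-144760629 (Clca3a1), chr3:144849133-144849192 (Clca3b), chr3:145032590-145032649 (Clca1) and chr3:145098785-145098844 (Clca2), all on the minus strand. The 3 Clca3 genes share 59 of the 60 bases, while Clca1 has 20 and Clca2 has 21 differences from Clca3a2.

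Over whole transcripts, 26.8% of the distinct 50-base stretches of Clca3a1, 26.9% of those of Clca3a2 and 6.68% of those of Clca3b also occur in transcripts of other genes. Those found in other members made up 23.3% for Clca3a1, 23.5% for Clca3a2 and 6.68% for Clca3b. For Clca1 and Clca2 both shares were 0. The split of reads between Clca3a1 and Clca3a2 is therefore uncertain, and the strand setting of the authors' counting is not given in the sources used here. Exons of Clca3a1 overlap the antisense gene Gm34866, which had 1 count in aged-SP replicate 1 and 0 in the other 4 libraries. Exons of Clca3a2 overlap the antisense gene Gm43240, which was not analysed here.

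Clca1, the mucus protein, had the widest range of levels in the family. Its counts were 2477 and 5909 in aged-SP replicates 1 and 4, and 12375, 7 and 70 in young-SP replicates 1, 2 and 4. In CPM, the count divided by library size in megareads after TMM scaling, these are 150, 377, 773, 0.413 and 4.67 in the same order. Clca1 was therefore highest and lowest in libraries of the same group, the young-SP group, and the aged-SP libraries lay between. Young-SP replicate 1 exceeded replicate 2 by 1871-fold (95% exact counting interval 908 to 4654) and replicate 4 by 166-fold (131 to 213). The low libraries also differed from each other, replicate 4 being 11.3-fold (5.2 to 29.1) above replicate 2. Between the aged-SP libraries the ratio was 2.52 (2.41 to 2.65). Such intervals cover counting error only, since each sets 1 library against another. No molecular identifiers were counted, so they may be too narrow even for that.

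**Figure D1:**
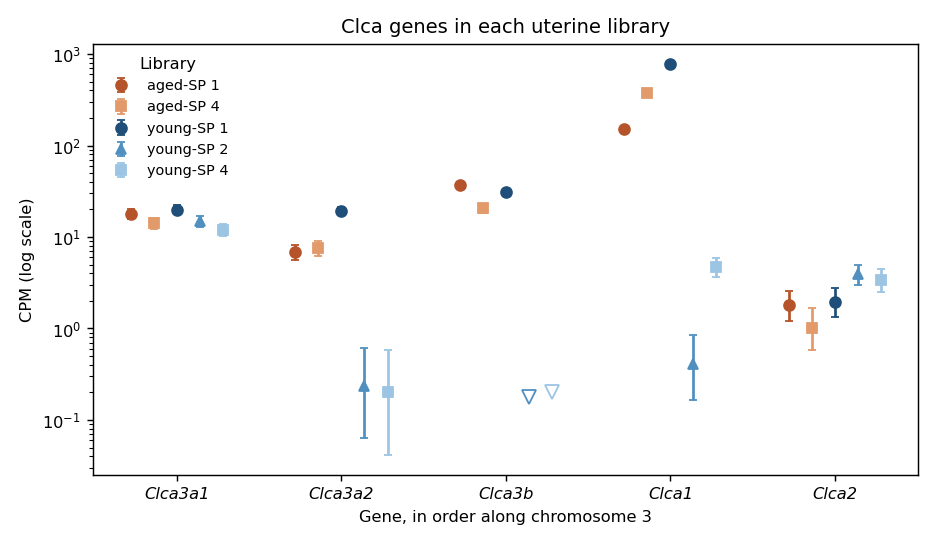
CPM of each Clca gene in each of the 5 libraries on a log axis, with 95% exact counting intervals. Open triangles mark 0 counts, drawn at the level that 3 counts would give. Clca1, Clca3a2 and Clca3b are at or near the bottom in young-SP replicates 2 and 4 and high in the other 3 libraries, whereas Clca3a1 stays between 12 and 19.9 CPM.

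Clca3b had no counts in young-SP replicates 2 and 4. It had 610 and 321 counts in aged-SP replicates 1 and 4, 491 counts in young-SP replicate 1, and 0 counts in each of the others. These are 36.8, 20.5 and 30.7 CPM, while 0 counts allow up to 0.177 CPM in young-SP replicate 2 and 0.2 CPM in replicate 4 (3 counts per library). Young-SP replicate 1 was thus at least 173-fold above replicate 2 and at least 153-fold above replicate 4. Aged-SP replicate 1 was at least 208-fold and 184-fold above them, and aged-SP replicate 4 at least 116-fold and 103-fold. Among the 3 libraries with counts the levels were close, with aged-SP replicate 1 at 1.2 times (1.06 to 1.35) young-SP replicate 1.

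Clca3a2 was also low in young-SP replicates 2 and 4, and was highest in young-SP replicate 1. Its counts were 113 and 118 in aged-SP replicates 1 and 4, and 308, 4 and 3 in young-SP replicates 1, 2 and 4, which are 6.82, 7.54, 19.2, 0.236 and 0.2 CPM. Young-SP replicate 1 was 81.5-fold (31.5 to 301) above replicate 2 and 96.2-fold (32.6 to 469) above replicate 4. The low libraries could not be told apart at this depth, with a ratio of 1.18 (0.2 to 8.06). The same holds for the aged-SP libraries, at 1.1 (0.846 to 1.44).

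Clca3a1, the nearest copy of Clca3a2, did not share this pattern. It had 295 and 220 counts in aged-SP replicates 1 and 4, and 318, 251 and 180 counts in young-SP replicates 1, 2 and 4, or 17.8, 14.1, 19.9, 14.8 and 12 CPM. The highest library was 1.66 times (1.37 to 2) the lowest, and the groups overlapped. In young-SP replicates 2 and 4, where Clca3a1 had 251 and 180 counts, Clca3a2 had 4 and 3, so few reads were assigned to Clca3a2 despite the shared stretches.

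Clca2 had few counts and ran the other way. Its counts were 30 and 16 in aged-SP replicates 1 and 4, and 31, 66 and 51 in young-SP replicates 1, 2 and 4, or 1.81, 1.02, 1.94, 3.9 and 3.4 CPM. All young-SP libraries were above both aged-SP libraries, but young-SP replicate 1 was only 1.07 times (0.626 to 1.83) aged-SP replicate 1, which is within counting error. The ratio of the highest to the lowest library was 3.81 (2.18 to 7.05).

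Levels of different genes are compared per gene length, in the authors' FPKM. In the aged-SP group (n = 2) the mean FPKM was 69.5 for Clca1, 8.47 for Clca3b, 4.06 for Clca3a1, 1.8 for Clca3a2 and 0.303 for Clca2, and no neighbours in this order overlapped. In the young-SP group (n = 3) the mean FPKM was 68.2 for Clca1, 4 for Clca3a1, 3.02 for Clca3b, 1.64 for Clca3a2 and 0.667 for Clca2. Every pair of neighbours in the young-SP order overlapped, since Clca1 ran from 0.112 to 203 FPKM and Clca3a1 from 3.06 to 5.06. The summed FPKM of the family was 56.7 and 112 in aged-SP replicates 1 and 4, and 223, 4.92 and 5.07 in young-SP replicates 1, 2 and 4. Clca1 made up 69.2% and 89.4% of this sum in the aged-SP libraries, and 91.3%, 2.28% and 24.2% in young-SP replicates 1, 2 and 4. Where Clca1 was low, Clca3a1 was the main member, with 79% of the sum in young-SP replicate 2 and 60.4% in replicate 4, against 7.98% or less in the other 3 libraries.

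**Figure D2:**
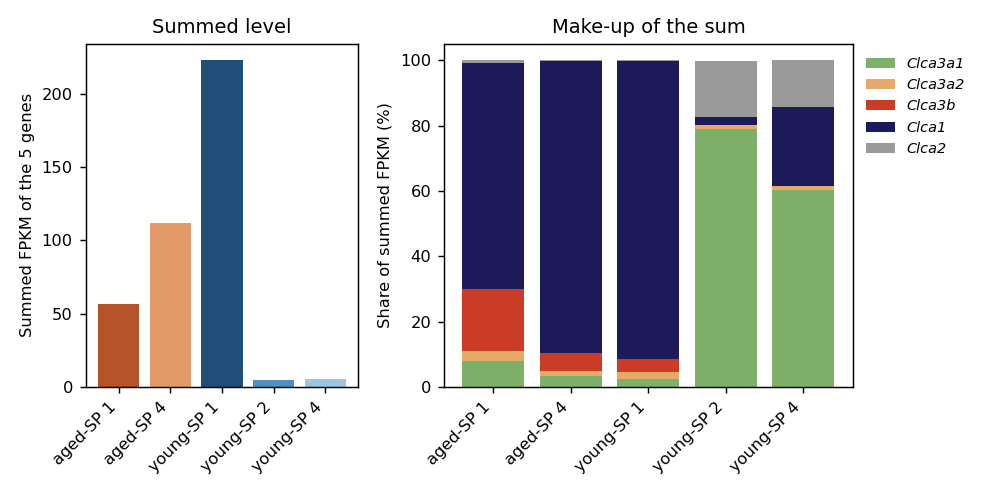
Left, summed FPKM of the 5 Clca genes in each library; right, the share of each gene in that sum in percent. The sum is between 56.7 and 223 FPKM where Clca1 dominates and near 5 FPKM in young-SP replicates 2 and 4, where Clca3a1 dominates.

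The study compared uteri exposed to aged and young males' seminal plasma. Values are mean CPM ± SD, first for aged-SP (n = 2) and then for young-SP (n = 3), with the log2 fold change of aged-SP over young-SP. Clca1 averaged 263 ± 161 CPM and 259 ± 445 CPM, with a log2 fold change of 0.02 (standard error 2.32). Clca3b was at 28.7 ± 11.5 and 10.2 ± 17.7 CPM, a log2 fold change of 1.49 (standard error 1.92). Clca3a2 was at 7.18 ± 0.506 and 6.56 ± 11 CPM, a log2 fold change of 0.13 (standard error 1.69). For these 3 genes the standard error exceeded the fold change, and the SD of the young-SP group exceeded its mean. Their size depends on the method, since limma-voom gave 4.39 for Clca1, 6.47 for Clca3b and 2.76 for Clca3a2. Clca3a1 was at 15.9 ± 2.66 and 15.6 ± 3.98 CPM, a log2 fold change of 0.03 (standard error 0.25). Clca2 was at 1.42 ± 0.558 and 3.08 ± 1.02 CPM, a log2 fold change of -1.11 (standard error 0.44).

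By edgeR's quasi-likelihood test, 0 of the 5 members were called (adjusted p under 0.05 and absolute log2 fold change over 1), beside 25 of 17013 tested genes (0.147%), 14 of them higher in aged-SP and 11 lower, with 3228 at an unadjusted p under 0.05. By DESeq2, the tool of the study, 0 members were called beside 632 of 17536 genes (3.6%). DESeq2 gave no p for Clca1 and Clca3b because 1 library had too large a Cook's distance (a measure of the pull of 1 library on the fit), which was 36.54 for Clca1 and 32.56 for Clca3b in young-SP replicate 1 against a limit of 30.82. The groups did not overlap for 1 member, Clca2, beside 38.8% of tested genes. Because these values are among those the family was chosen on, nothing is read from the members' counts.

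The values of 3 members turn on young-SP replicate 1. The authors had already left another young-SP sample out as an outlier in hierarchical clustering, so the spread within this group is that of the libraries kept. When young-SP replicate 1 was left out, log2 fold changes were 6.71 for Clca1 and 4.97 for Clca3a2. Clca3b was then higher in aged-SP by at least 152-fold, taking 3 counts for each remaining young-SP library. Replicates 2 and 4 of the young-SP group were both below the other 3 libraries for Clca1, Clca3a2 and Clca3b, a pattern described after the values were seen. It held for 16.3% of tested genes. With the lowest of the 3 libraries at least 4 times the higher of the 2, it held for the same 3 members and for 0.594% of tested genes. Among 15568 tested genes with a mean of at least 1 CPM, the SD of log2 CPM over the young-SP libraries was 5.38 for Clca1 (rank 2), 4.59 for Clca3b (rank 5) and 3.36 for Clca3a2 (rank 26). The median gene had 0.17, Clca2 had 0.51 and Clca3a1 had 0.36. The ranks are descriptions only, since the family was chosen on levels in these same libraries.

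The genes nearest the cluster did not vary in this way. Sh3glb1, next to Clca3a1, lay between 123.6 and 149.3 CPM, and Odf2l, next to Clca2, between 19.78 and 24.33 CPM over the 5 libraries.

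The genes whose profiles were most like those of the members were named by the root mean square distance of log2 CPM, centred on its mean over the 5 libraries. For Clca1, whose own profile had a size of 4.01, they were Lpo (lactoperoxidase, distance 1.12), Lcn2 (lipocalin 2, 1.22), Sftpd (surfactant protein D, 1.27), Chil1 (a chitinase-like protein, 1.33) and Clca3b (1.34). Lcn2, which withholds iron from bacteria, was at 1670 and 1084 CPM in aged-SP replicates 1 and 4, and at 1632, 2.3 and 4 CPM in young-SP replicates 1, 2 and 4. For Clca3b they were Trim12a (0.46), Chil1 (0.52), Lcn2 (0.54), Gabrp (a GABA receptor subunit, 0.79) and Lpo (0.92), beside a profile size of 3.85. Trim12a was the nearest, with 34, 37.4 and 20.6 CPM in the libraries where Clca3b had counts and 0 in the same 2 libraries. For Clca3a2, with a size of 2.45, they were Pglyrp1 (a peptidoglycan recognition protein, 0.49), Muc4 (a membrane mucin, 0.66), Oas3 (an interferon-induced synthetase, 0.69), Ccl28 (a mucosal chemokine, 0.73) and A2ml1 (a protease inhibitor, 0.74). Pglyrp1 was at 199, 180 and 234 CPM in both aged-SP libraries and young-SP replicate 1, and at 9.27 and 10.2 CPM in young-SP replicates 2 and 4.

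The other members had smaller profiles, and many genes lay close to them. For Clca2, with a size of 0.65, the nearest were Ptgfr (the prostaglandin F receptor, 0.10), Ccdc187 (0.14), Ptch1 (the hedgehog receptor, 0.15), Lrrc34 (0.15) and Rapgef4 (0.16), and 64 genes lay within 0.25. Ptch1, a progesterone-induced gene, was at 76.6 and 58.7 CPM in aged-SP replicates 1 and 4, and at 90.8, 193 and 183 CPM in young-SP replicates 1, 2 and 4. For Clca3a1, with a size of 0.25, 3266 genes lay within 0.25, and Tbc1d2, Ppp1r14b, Pi4k2b, Il2rg and Actr2 were nearest at 0.07. Between members, Clca1 and Clca3b were 1.34 apart, Clca3a2 and Clca3b 1.55, and Clca1 and Clca3a2 1.80, whereas the near-identical Clca3a1 and Clca3a2 were 2.26 apart. These distances rest on 5 libraries and describe them only.

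**Figure D3:**
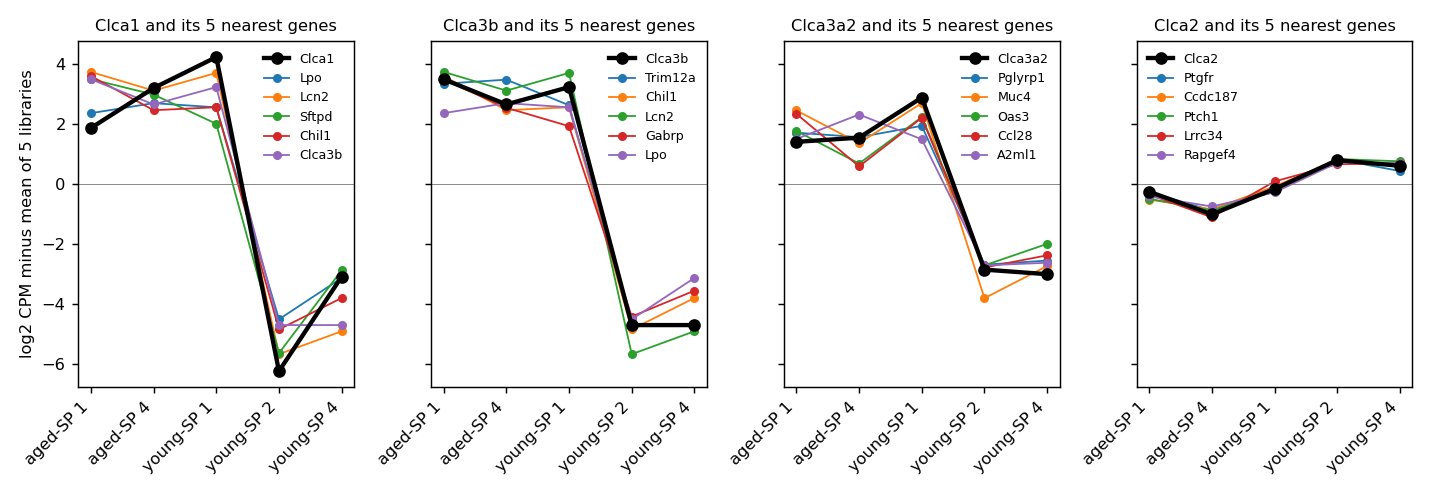
log2 CPM minus its mean over the 5 libraries for Clca1, Clca3b, Clca3a2 and Clca2 (black) and the 5 genes nearest to each (colours), 1 point per library. Clca1, Clca3b and Clca3a2 drop in young-SP replicates 2 and 4 together with their nearest genes, and Clca2 has a small profile in the other direction.

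Mucus and goblet cell genes are the company in which Clca1 is known. Of 25 listed, 14 were tested, 0 were called by edgeR in either direction, 2 higher and 2 lower genes had an unadjusted p under 0.05, and the median log2 fold change was 0.87 beside 0.007 for all tested genes. Of the untested genes, Muc2, Muc6, Agr3, Tff1, Tff3 and Foxa3 had at most 6 counts in any library. Tff2, Itln1 and Bpifb1, also untested, had at most 34. DESeq2 called 2 higher (Agr2 and Muc5b) and 1 lower (Muc16), and gave no adjusted p for the tested genes Muc4 and Muc13. Beside this list and those below, 3228 of all 17013 tested genes had an unadjusted p under 0.05, both directions together. DESeq2 called 632 of 17536. Young-SP replicates 2 and 4 were lowest for 7 of the 14 genes, 5 of them by at least 4 times, beside 16.3% and 0.594% of all tested genes. Of these 5, Muc5ac, Muc5b and Muc13 had as few as 7, 6 and 6 counts in 1 of the other libraries. They had at most 1 count in young-SP replicates 2 and 4. Their 4-fold step therefore rests on few reads, unlike that of Muc4 and Muc20. Fcgbp, a mucus protein that binds the tail of antibodies, was at 188 and 404 CPM in the aged-SP libraries and 212, 35.3 and 61.2 CPM in young-SP replicates 1, 2 and 4. The gel-forming mucin Muc5b reached 1.69 and 4.6 CPM in the aged-SP libraries and 0.375 CPM or less in the young-SP libraries. The membrane mucin Muc16 ran the other way, at 3.5 and 3.39 CPM against 5.81, 10.4 and 16.5 CPM. Tgm2, a cross-linking enzyme and the most abundant gene of the list, lay between 363 and 731 CPM, and Spdef, a goblet cell transcription factor, between 1.33 and 2.13 CPM.

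Genes listed as estrogen-induced in the uterus, not all of them in the epithelium alone, showed the library pattern of Clca1 in part. Of 22 listed, 18 were tested, 0 were called by edgeR, 6 higher and 1 lower had an unadjusted p under 0.05, and the median log2 fold change was 0.69. Young-SP replicates 2 and 4 were lowest for 10 of the 18, 4 of them by at least 4 times (Ltf, Lcn2, Sprr2b and Aqp5). All tested genes had 16.3% and 0.594%. Ltf (lactotransferrin) was at 2705 and 4324 CPM in the aged-SP libraries and 3627, 28.2 and 394 CPM in young-SP replicates 1, 2 and 4, so that its lowest library was the one with the lowest Clca1. Complement C3 was at 4938 and 3014 CPM against 1757, 347 and 630 CPM. The water channel Aqp5 was at 42.7 and 44.3 CPM against 13.7, 1.53 and 1.4 CPM. Aqp8 had 43.5 CPM in aged-SP replicate 1 and 1.79 CPM or less in the other 4 libraries. DESeq2 called 2 of the list, both higher (Aqp8 and Greb1), and gave no adjusted p for the tested genes Lcn2 and Sprr2b.

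Progesterone-induced genes leaned the other way. Of 16 tested, 0 were called by edgeR, 1 higher and 9 lower had an unadjusted p under 0.05, DESeq2 called 6, all lower in the aged-SP group, and the median log2 fold change was -0.48. Lrp2, an endocytic receptor, was at 24.8 and 17.2 CPM in the aged-SP libraries and at 176, 361 and 553 CPM in young-SP replicates 1, 2 and 4 (log2 fold change -4.11, adjusted p = 0.0734 by edgeR with Benjamini-Hochberg adjustment). Cyp26a1, which breaks down retinoic acid, had 104 CPM in aged-SP replicate 1 and between 2.3 and 3.4 CPM elsewhere. The homeobox gene Hoxa10 was even, between 437 and 518 CPM. Young-SP replicates 2 and 4 were lowest for 1 of the 16, beside 16.3% of all tested genes.

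**Figure D4:**
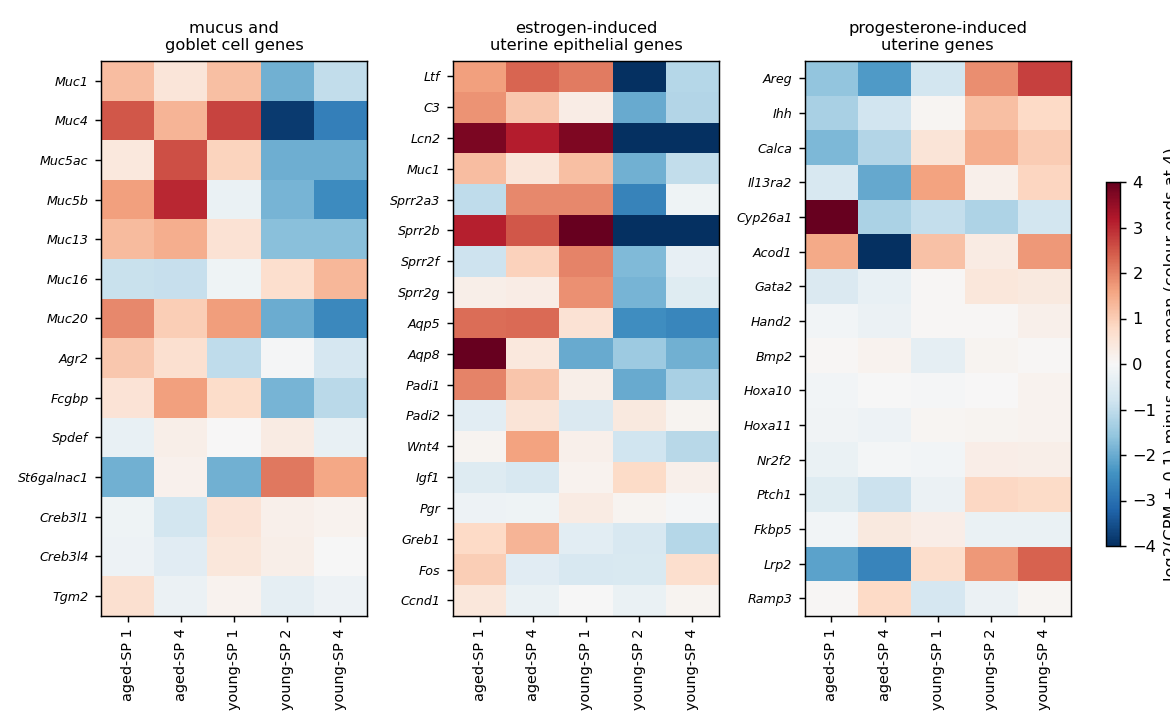
log2(CPM + 0.1) minus the gene's mean over the 5 libraries for the tested genes of the mucus, estrogen-induced and progesterone-induced lists, with rows as genes and columns as libraries (red above, blue below the mean, colours end at 4). Blue cells in young-SP replicates 2 and 4 are frequent among mucus and estrogen-induced genes and rare among progesterone-induced genes. Of the latter, 1 of 16 genes was lowest in both, beside 16.3% of all tested genes.

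Mucus genes are known from epithelia, so markers of the uterine epithelium are given beside the members. Of 16 tested markers, 0 were called by edgeR, 1 higher and 3 lower had an unadjusted p under 0.05, DESeq2 called 3 lower (Lpar3, Calb1 and Cldn3), and the median log2 fold change was 0.38. No marker was at 0 in all libraries, and the summed level of the list was 1829 and 1821 CPM in the aged-SP libraries and 2673, 1559 and 1968 CPM in young-SP replicates 1, 2 and 4. Calb1, a calcium-binding protein of the receptive epithelium, was at 102 and 60.2 CPM against 519, 398 and 558 CPM. Lpar3, a receptor needed for the timing of implantation, was at 6.64 CPM in both aged-SP libraries and 20.1, 39.3 and 47.9 CPM in the young-SP libraries. Krt8 lay between 202 and 400 CPM.

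The epithelial adhesion gene Epcam, named here after its values were seen, was at 262 and 235 CPM in the aged-SP libraries and 280, 76.5 and 86.9 CPM in young-SP replicates 1, 2 and 4. Its highest library was 3.67 times its lowest, and the summed epithelial list varied by 1.72 times, whereas Clca1 varied by 1871 times. Clca1 CPM per Epcam CPM was 0.571 and 1.61 in the aged-SP libraries and 2.76, 0.0054 and 0.0537 in young-SP replicates 1, 2 and 4, a 510-fold range. For Clca3a2 the range was 96.2-fold, and 29.8-fold per Epcam. The part of epithelial content in the members' levels was not tested. In whole uteri, fewer cells of a type and less RNA per cell cannot be told apart.

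Gland markers had the library pattern of Clca1 in part, with young-SP replicates 2 and 4 lowest for 5 of 9 tested genes, 2 of them by at least 4 times, beside 16.3% and 0.594% of all tested genes. Of the 9, 0 were called by edgeR, 1 higher and 2 lower had an unadjusted p under 0.05, and the median log2 fold change was 0.71. DESeq2 called 2 lower (Cxcl15 and Ttr), which ran the other way, and gave no adjusted p for Prss28 and Prss29. Cxcl15 was at 2.9 and 1.92 CPM in the aged-SP libraries and 8.68, 20.1 and 8.13 CPM in young-SP replicates 1, 2 and 4. Ttr was at 0.241 and 0 CPM against 1.62, 2.3 and 1.27 CPM. The implantation serine proteases Prss28 and Prss29 were lowest in young-SP replicates 2 and 4, as Clca1 was. Prss29 was at 2455 and 2134 CPM in the aged-SP libraries and 385, 2.95 and 11.5 CPM in young-SP replicates 1, 2 and 4. Prss28 was at 1444 and 763 CPM against 90.6, 0.354 and 0.267 CPM. Unlike Clca1, both were several times lower in young-SP replicate 1 than in the aged-SP libraries. Foxa2, the transcription factor that defines uterine glands, lay between 8.5 and 14.1 CPM.

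Lymphatic endothelial markers are given beside Clca3a1. Of 7 tested, 0 were called by edgeR, 7 higher and 0 lower had an unadjusted p under 0.05, DESeq2 called 2 higher (Pdpn and Reln), and the median log2 fold change was 0.85. Mmrn1 was at 111 and 108 CPM in the aged-SP libraries and 48.5, 79.9 and 70.7 CPM in young-SP replicates 1, 2 and 4, and Lyve1 at 87.7 and 91.9 CPM against 43.4, 52.8 and 53.1 CPM. Clca3a1 was highest in young-SP replicate 1, where Mmrn1 and Lyve1 were lowest. Their part in the level of Clca3a1 was not tested.

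Among genes of other calcium-activated chloride channels and their relatives (anoctamins, bestrophins and the Ttyh family), 12 of 16 were tested and 0 were called by edgeR, with 2 higher and 3 lower at an unadjusted p under 0.05 and a median log2 fold change of -0.14. DESeq2 called 1 higher (Ano4) and 2 lower (Ano2 and Best1). Ano1, the channel that CLCA1 is known to act on, was at 79.6 and 93.6 CPM in the aged-SP libraries and 112, 117 and 137 CPM in the young-SP libraries (log2 fold change -0.49, adjusted p = 0.151 by edgeR with Benjamini-Hochberg adjustment). Ano1 was highest in the 2 libraries with the least Clca1. Young-SP replicate 1, with the most Clca1, was at 112 CPM of Ano1, close to replicate 2 at 117 CPM and above both aged-SP libraries. The levels of Ano1 therefore did not follow those of Clca1 in either direction. Ano2 was at 1.45 and 0.319 CPM against 1.75, 25.9 and 13.4 CPM, and Ano4 at 25.2 and 41.3 CPM against 11.4, 10 and 14 CPM. Ttyh3 lay between 74.2 and 123 CPM. Ano9 was the 1 gene of the 12 tested that was lowest in young-SP replicates 2 and 4, beside 16.3% of all tested genes.

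Clca1 is known to be induced by interleukin 13 in airway goblet cells, so the type 2 cytokine genes were listed. Of 13, 9 were tested and Il5, Il9, Il13 and Il25 had too few counts, 0 were called by edgeR, 2 higher and 2 lower had an unadjusted p under 0.05, and the median log2 fold change was 0.02. DESeq2 called 2 lower. These were Il13ra2, a decoy receptor for interleukin 13, at 14.2 and 5.3 CPM in the aged-SP libraries and 67.5, 25.4 and 39.9 CPM in young-SP replicates 1, 2 and 4, and Il17rb, the receptor of interleukin 25, at 12.4 and 23.6 CPM against 69.3, 135 and 196 CPM. Il4ra lay between 68.3 and 121 CPM and Stat6 between 84.6 and 109 CPM, and both were lowest in young-SP replicates 2 and 4.

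Markers of other cells that a dissected uterus could hold were summed in the same way. The squamous list of vagina and cervix summed to between 10.8 and 18 CPM, with 4 of 12 genes tested. The bladder list summed to between 20.2 and 77.7 CPM, the ovary list to between 63.8 and 120 CPM, and the oviduct list to between 190 and 391 CPM. The leukocyte list summed to between 260 and 551 CPM, blood endothelium to between 625 and 968 CPM, myometrium to between 9120 and 14240 CPM and stroma to between 10769 and 19369 CPM. By edgeR, 0 of the 52 tested genes of these 8 lists were called, while 4 higher and 10 lower genes had an unadjusted p under 0.05. DESeq2 called 2 higher (Oxtr and Pax8) and 1 lower (Upk1b). The part of these cells in the members' levels was not tested.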

How the data were processed

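Uterine RNA of 2 aged-SP and 3 young-SP libraries was analysed, with groups taken from the sample titles. Per the labels, libraries were made with a NEBNext Ultra kit. The submitters' processing notes name HISAT2 2.1.0, Bowtie2 2.2.3 and HTSeq 0.6.0, and gene positions are those of GRCm38. The authors deposited the raw count of each gene in each library, which is the base of every test here. The deposited FPKM values served for levels between genes and their sum per library, and for 1 alternative fold change, the ratio of group means of FPKM + 0.1. Dividing each count by its FPKM and library total gave 1 fixed length per gene (relative spread at most 2.33e-07). The authors' own comparison was deposited beside the counts and was not used. It holds a mean signal after DESeq2 scaling, a fold change ratio, a log2 fold change and a p-value with its adjusted form, all made by the authors.

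Genes passing filterByExpr (17013) were compared in edgeR 4.0.16 under R 4.3.3 with TMM scaling (factors 0.990 to 1.02), glmQLFit and glmQLFTest (two-sided), Benjamini-Hochberg adjusted and called where the adjusted p was under 0.05 and the log2 fold change exceeded 1 in size. Fold changes are aged-SP over young-SP. CPM values are counts over the TMM-scaled library size, log2 CPM has a prior count of 2, and 0 counts are given a floor of 3 counts per library. Alternatives were DESeq2 1.42.0, limma-voom (limma 3.58.1), other scalings and filters, a replicate block and each library left out. The fits were tested on simulated data. No pair of libraries agreed within sampling noise (chi-square per degree of freedom 17 or more). Python 3.11.15 with numpy 2.4.6, pandas 2.3.3, scipy 1.17.1, Biopython 1.88 and matplotlib 3.10.9 was used for sequences, which come from GENCODE M21 transcripts and RefSeq promoters, and figures.

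The members and the 17 gene lists were chosen with earlier results of these data known. Genes named beside the members are, from each list, every gene called by edgeR, the 2 most abundant and the 2 with the largest absolute log2 fold change at a mean of at least 1 CPM, and the 5 genes nearest in profile to each member. Other genes named were chosen after their values were seen. They are those called by DESeq2 or lowest in young-SP replicates 2 and 4, neighbours of the cluster, and Epcam, Foxa2 and Spdef. Protein sequences were not used here.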

Additional observations from a re-analysis of the deposited data

How the results depend on the processing

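Against 25 called genes, DESeq2 called 632 and edgeR without a filter on low counts 203, and leaving out 1 library gave between 1 (without aged-SP replicate 1) and 578 (without young-SP replicate 1), and 49 without aged-SP replicate 4. Leaving out replicate 2 or 4 of the young-SP group gave 3 and 2 genes. Genes of the lists, 0 of which were called, numbered 25 with DESeq2, 2 with limma-voom, 10 without the filter, and between 0 and 31 with 1 library left out, the highest without young-SP replicate 1. With 1 library left out, the log2 fold change lay between -0.79 and 6.71 for Clca1, -0.44 and 4.97 for Clca3a2, 0.90 and 11.84 for Clca3b, -0.15 and 0.24 for Clca3a1 and -1.59 and -0.76 for Clca2. The highest values of Clca1, Clca3a2 and Clca3b were those without young-SP replicate 1. The 11.84 is fitted against 0 counts and depends on the prior count, the bound being 7.25 on the log2 scale. Limma-voom, which averages on the log scale, gave 4.39 for Clca1, 2.76 for Clca3a2 and 6.47 for Clca3b, and the replicate block gave 1.77, 0.94 and 2.47, so the size of these 3 fold changes depends on the method. Of 70 alternative fold changes of the members, 66 moved by less than 1 SD between replicates, which is as wide as 4.43 for Clca1 and 2.75 for Clca3a2. Of the 10 pairs of members, the order of the young-SP means was kept by 9 in replicate 1, 5 in replicate 2 and 6 in replicate 4. With 100-base stretches, the share found in other genes was 9.47% for Clca3a1, 9.8% for Clca3a2 and 0.608% for Clca3b. The replicate block called 2 genes. Its groups share only the numbers 1 and 4, which the labels do not tie to a pairing (correlation of deviations over 17013 genes 0.1523 for number 1 and 0.1356 for number 4). With 3 to 70 counts in the low libraries, depth limits Clca3a2 and Clca1 there to the intervals given, and Clca3b to its floor.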

Other observations

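The promoters of Clca3a1, Clca3b and Clca2 in the RefSeq table (GRCm38.p6, 250 bases before to 50 bases after the start) were searched on both strands for short motifs of hormone and cytokine response, as a description of letters only. The entry of Clca3a1 starts at a transcript other than its coding one. The estrogen receptor half-site GGTCA, found in 40.5% of all 32851 promoters, occurred once in Clca3b and once in Clca2, and the half-site TGTTCT of the progesterone and glucocorticoid receptors, found in 19%, occurred once in Clca2. The STAT motif TTCNNNGAA, found in 8.3%, occurred once in Clca2. TATAAA, found in 13.6%, was not among the letters of these 3 windows.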
